A study of Oryza sativa with 18 samples.

Results

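The step described here runs from pollen mother cell formation (P2) to meiosis (P3) in young panicles of rice plants that were going to be male sterile. It compares the 3 SP3 libraries with the 3 SP2 libraries of Wuxiang S (WXS), a rice line whose genic male sterility depends on day length and temperature (PTGMS), and its members are the coding genes that reach 10 counts in 3 or more of these 6 libraries. Of the 47919 coding genes in the table, 23441 (48.9%) met this rule. All libraries are whole young panicles of the same line. SP3 and SP2 come from WXS (S), plants kept in the summer field under long days and warm temperatures, which form no pollen. FP3 and FP2 are the same stages of WXS (F), plants moved to a climate incubator with short days and lower temperature when the panicle was about 1 cm long, after which they became fertile. SP4, the microspore stage of WXS (S), is used only to show where levels went next. The paper describes the 3 libraries of a group as biological replicates. Neither it nor the labels say whether they come from separate plants, so P values measure the spread between these libraries. Field and incubator differ in light, temperature and place at once, so that fertility and growth conditions cannot be told apart.

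In a rice panicle at these stages the anther differentiates. Pollen mother cells form inside the locule, replicate their DNA and enter meiosis, while the surrounding tapetum grows into the secretory layer that feeds them and later supplies the pollen wall. Glume, rachis and other anther tissues divide and expand around them and make up much of a whole panicle. In PTGMS lines warm long days block male development, and cool short days restore it.

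The 6 libraries held 30577833 (SP3-2) to 52222861 (SP2-3) counts on coding genes, so that a count of 0, taken to allow up to 3 counts, allows a share of up to 5.74e-06% to 9.81e-06% of a library's coding counts, for counting error only. Pearson correlations of log2 CPM (counts scaled to library size) across genes were 0.942 to 0.960 within a stage and 0.903 to 0.914 between stages. The main axis of variation, with 48% of the variance, separated SP3 from SP2, and the next set SP3-2 and SP2-1 apart from the other 4 libraries. SP3-2 also had any count for 34782 genes, against 27770 to 29014 in the other 5. In SP2-1 a single transcript held 94.1% of the 2214394 long noncoding RNA counts, which are not used below. Where one of these libraries decides how the groups of a gene stand, the value without it is given too. The files do not pair gene identifiers with names. Names and roles are given only for 121 identifiers that the study annotates, so the stage labels could not be checked against markers of meiocytes or tapetum.

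From P2 to P3 in WXS (S), 939 coding genes rose and 773 fell at a Benjamini-Hochberg adjusted P below 0.05 and a change of at least 1 on the log2 scale, by the quasi-likelihood test of edgeR. These are 4.01% and 3.3% of the genes tested, and 7.3% together. The median log2 fold change of the genes that rose was 2.02, and that of the genes that fell was -1.87, against 0.00 over all genes tested. In bulk tissue, fewer cells of a type and less RNA per cell cannot be told apart. All 1712 genes had SP3 libraries wholly above or wholly below the SP2 libraries, which the call on the same 6 values nearly fixes and which is therefore only a description. Over all genes tested, 16.5% were higher and 16.8% lower in every SP3 library. Without SP3-2 and SP2-1, 542 genes rose and 581 fell, and 489 and 496 of these were among those called with all 6 libraries.

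Genes that rose were mostly weak in SP2. Their median level was 2.16 FPKM (fragments per kilobase of transcript, scaled to sequencing depth) in SP3 and 0.370 FPKM in SP2, and 626 of the 939 were under 1 FPKM in SP2. Genes that fell had a median of 0.908 FPKM in SP3 and 3.64 FPKM in SP2. Genes that did not pass were more strongly expressed, with medians of 3.97 FPKM in SP3 and 4.08 FPKM in SP2. The genes that rose took 1.62% to 1.92% of the counts of an SP3 library, against 0.489% to 0.541% in SP2. The genes that fell took 1.25% to 1.40% in SP3, against 3.89% to 4.04% in SP2. By identifier, 44 of 1418 tested genes that the authors assembled as new loci rose and 47 fell, or 6.42% in all, close to the 7.36% of the 21995 LOC_Os genes. The share of tested genes that passed lay between 6.52% on chromosome 9 and 8.52% on chromosome 10.

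Ranked by the log2 fold change of edgeR, the 10 largest rises among genes averaging at least 100 counts in SP3 were all at 0 in every SP2 library. This ranking puts groups at 0 first, so it does not show that these genes rose more than genes with counts in SP2. LOC_Os04g58120, for example, had a mean log2(CPM + 1) of 0.416 in SP2 and 7.154 in SP3. The rises of the 10 genes were at least 83.1-fold to at least 786-fold against a floor of 3 counts per library. LOC_Os09g35700 had 1981, 1434 and 3174 counts in SP3-1, SP3-2 and SP3-3, against 0, 0 and 0 in SP2, at least 786-fold higher (edgeR adjusted P = 0.000507). Its counts in the SP4 libraries were higher again, at 35060, 45071 and 39139. LOC_Os06g42280 had 1171, 627 and 819 counts in SP3, against 0, 0 and 0 in SP2, at least 314-fold higher (edgeR adjusted P = 0.000338). In the SP4 libraries it had 289, 270 and 343 counts, so its SP3 counts were the highest of the 3 stages. In the fertile plants both genes already had counts in every library at P2. LOC_Os09g35700 had 2543, 2038 and 1726 counts in FP3, against 14, 11 and 12 in FP2. LOC_Os06g42280 had 369, 250 and 297 counts in FP3, against 15, 10 and 12 in FP2. Neither gene is named in the sources used here. Of the 10 genes, 9 were tested in the fertile plants and 8 of these passed as higher in FP3. For comparison, 12.3% of all genes tested there and 57.9% of all SP3 rises were higher in FP3. In 7 of the 10 the step was also called more positive in WXS (S) than in WXS (F), against 26.4% of all SP3 rises, in a test that shares the SP libraries that chose them. A mean SP4 level above every SP3 library was found in 5 of the 10.

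Among all rises, 69 genes had 0 counts in every SP2 library, with bounds from 4.30-fold to 786-fold and a median of 13.6-fold. Of these 69, 22 had 0 counts in every FP2 library too, 13 had counts in every FP2 library, and 58 had counts in every SP4 library. Among the falls, 28 genes had 0 counts in every SP3 library, with bounds from 4.35-fold to 121-fold and a median of 10.5-fold. Of these 28, 11 also had 0 counts in every SP4 library and 4 in every FP3 library.

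The falls printed here were less steady across the series than the rises printed above. LOC_Os03g05360 had 0, 0 and 0 counts in SP3, against 613, 71 and 514 in SP2-1, SP2-2 and SP2-3. Against a floor of 3 counts per library, SP3 was at least 121-fold below the SP2 mean (edgeR adjusted P = 0.0194). That mean covers 14.7, 1.47 and 10.3 CPM in SP2-1, SP2-2 and SP2-3. The call was lost without SP3-1 or without SP3-3 (adjusted P = 0.0532 in each case). Without any 1 of the SP2 libraries the gene missed the filter and was not tested. LOC_Os02g06960 had 0, 0 and 0 counts in SP3, against 221, 213 and 231 in SP2, at least 65.4-fold lower (edgeR adjusted P = 0.000852). Zeros also occurred beside high counts inside a group. LOC_Os03g05360 had 0, 45 and 996 counts in the SP4 libraries, and LOC_Os02g06960 had 303, 0 and 0 in the FP2 libraries. Such zeros were not limited to falls: a gene among the 10 largest rises had 801, 0 and 0 counts in the FP3 libraries. Over all tested genes, 174 (0.742%) had 0 counts in 1 library and at least 100 in another of the same group, SP3 or SP2. How the counting assigned reads between similar genes is not given in the sources used here, so a 0 in these genes cannot be read as absence of the transcript.

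The 121 annotated genes comprise 109 parental genes of circular RNAs, which the study selected because their circular RNAs differed between WXS (F) and WXS (S) in these libraries, and 12 genes it names as predicted targets in a microRNA network. They are thus no independent sample of the genome. Of the 121, 119 were tested. Of these, 2 rose and 3 fell, or 4.2% against 7.3% of all genes tested, and the median log2 fold change was -0.08 against 0.00. In 91 of the 119 (76.5%) the change was under 0.5 on the log2 scale, against 67.6% of all genes tested. The plot by group also shows 4 genes with changes beyond 1 that did not pass, the furthest at 2.47 (LOC_Os05g37210, with no name in the sources, adjusted P = 0.148).

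**Figure D1:**
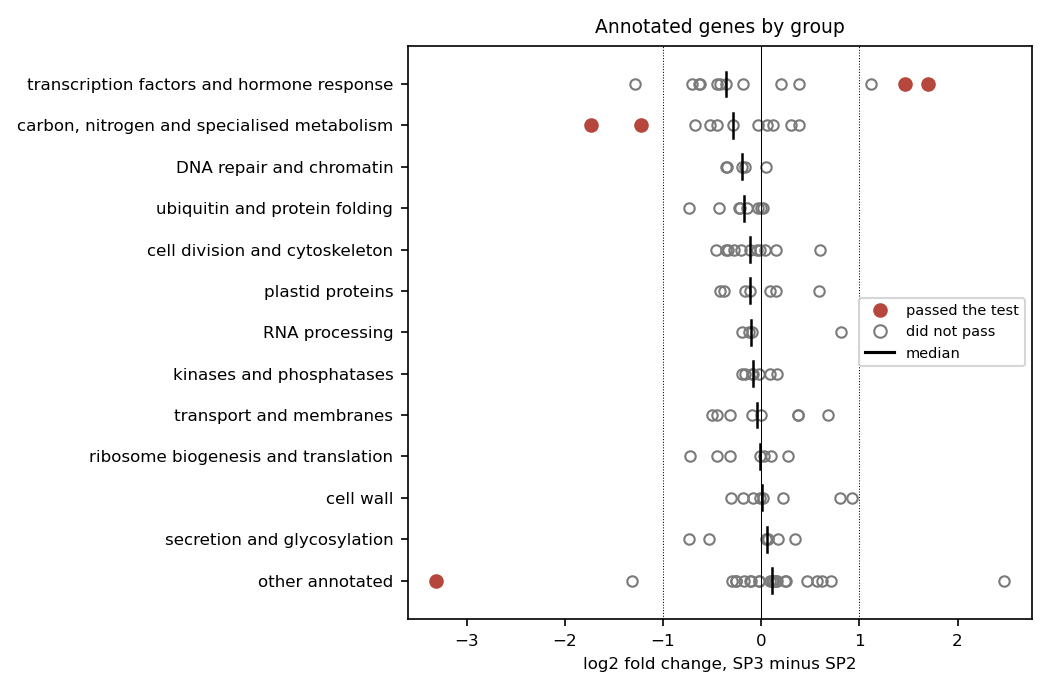
Log2 fold change from P2 to P3 in WXS (S) of the 119 tested annotated genes, 1 row per group, with filled points for genes that passed, open points for those that did not, a bar at the group median and dotted lines at -1 and 1. Filled points occur in 3 rows: 2 genes above 1 among transcription factors and hormone response, 2 below -1 in metabolism, and 1 at -3.31 among the other annotated genes.

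The 2 named genes that fell belong to carbon metabolism. Fructose-bisphosphate aldolase (LOC_Os01g67860), which splits fructose 1,6-bisphosphate in glycolysis, had 432, 584 and 306 CPM in SP3, against 1551, 1407 and 1414 CPM in SP2. Its means were 441 ± 139 CPM in SP3 and 1457 ± 80.9 CPM in SP2 (SD, n = 3 each), with a log2 fold change of -1.73 ± 0.235 (SE, edgeR adjusted P = 0.00539). At 175 FPKM in SP3 and 613 FPKM in SP2 it was among the stronger transcripts of the list. Soluble starch synthase 3 (LOC_Os04g53310), which extends the glucan chains of starch, had 89.3, 128 and 86.7 CPM in SP3, against 279, 215 and 208 CPM in SP2. Its log2 fold change was -1.22 ± 0.198 (edgeR adjusted P = 0.0104), and the call was lost without SP3-1 (adjusted P = 0.0517). For both genes the groups did not overlap, and SP3-2 was the highest of the SP3 libraries and SP2-1 the highest of the SP2 libraries. Without both of these libraries the log2 fold changes were -1.94 for aldolase (adjusted P = 0.0107) and -1.27 for the synthase (adjusted P = 0.0038).

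Of the 11 tested genes of carbon, nitrogen and specialised metabolism, these 2 fell and none rose, or 18.2% called against 7.3% of all genes tested, a difference of about 1 gene. Their median log2 fold change was -0.29. A further 3 had an adjusted P below 0.05 with a change under 1. They were thiosulfate/3-mercaptopyruvate sulfurtransferase (LOC_Os12g41500, log2 fold change -0.67, adjusted P = 0.0285), the beta subunit of 2-oxoisovalerate dehydrogenase, which degrades branched-chain amino acids (LOC_Os07g07470, -0.52, adjusted P = 0.0449), and FLO2 (LOC_Os04g55230, -0.45, adjusted P = 0.0166). FLO2, known in rice as a regulator of starch and storage protein in the grain, had 77.9, 82.1 and 80.6 CPM in SP3, against 105, 113 and 109 CPM in SP2. The stages of FLO2 stood further apart than the libraries of either stage. The highest value in the list was 0.39, of the alpha subunit of the pyrophosphate-dependent phosphofructokinase (LOC_Os02g48360, adjusted P = 0.286).

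The largest change of any annotated gene was in LOC_Os10g14180. It has no name in the sources, but gene ontology terms annotate it with oxidoreductase activity that uses 2-oxoglutarate and with pollen development. It had 50.3, 64.5 and 43.2 CPM in SP3, against 626, 458 and 470 CPM in SP2. The means were 52.7 ± 10.9 CPM in SP3 and 518 ± 93.8 CPM in SP2 (SD, n = 3 each), a log2 fold change of -3.31 ± 0.212 (SE, edgeR adjusted P = 0.000378). In SP4 the mean was 107 ± 1.07 CPM, still below every SP2 library. Of the 23 annotated genes outside the functional groups 1, this gene, passed by edgeR (DESeq2 called 3), or 4.35% against 7.3% of all genes tested. An unadjusted edgeR P below 0.05 was found in 8 of the 23, or 34.8% against 26.2%. The list is too short to differ from these shares. A WEB family protein (LOC_Os02g03840), of a family known in Arabidopsis for chloroplast movement, was higher in every SP3 library (log2 fold change 0.71, adjusted P = 0.0147).

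Of the 13 tested transcription factors and hormone response genes, 2 rose and none fell, or 15.4% called against 7.3% of all genes tested, again a difference of about 1 gene. The auxin-repressed protein gene LOC_Os09g26620, of a family named for its repression by auxin, had 69.7, 49.0 and 73.4 CPM in SP3, against 19.2, 24.7 and 25.3 CPM in SP2. Its log2 fold change was 1.47 ± 0.193 (SE, edgeR adjusted P = 0.00485), and it stood at 33.7 ± 1.31 CPM in SP4, below the SP3 libraries. OMTN3 (LOC_Os12g41680), a NAC transcription factor of the set known as targets of miR164, had 1.2, 1.14 and 1.42 CPM in SP3, against 0.367, 0.556 and 0.228 CPM in SP2. These are 57, 35 and 65 counts in SP3, against 15, 26 and 11 in SP2. The log2 fold change was 1.70 ± 0.415 (SE, edgeR adjusted P = 0.0444). The call held in 1 of the 6 fits that leave out a library, the fit without SP2-2, and the other 5 had adjusted P values from 0.0746 to 0.124.

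The other NAC genes of the same set gave no call. OMTN1 (LOC_Os02g36880) had 13, 7 and 21 counts in SP3, against 22, 40 and 47 in SP2 (log2 fold change -1.29, adjusted P = 0.123). OMTN4, OMTN5, OMTN6 and OsNAC2 had log2 fold changes of -0.19, -0.62, -0.36 and -0.45, and overlapping groups except in OsNAC2. The G-box-binding factor HBP-1a (LOC_Os03g13614), a bZIP protein, had a log2 fold change of -0.63 with adjusted P = 0.0171, short of the fold limit. OsHsfC1a (LOC_Os01g43590), a heat stress transcription factor, had 38, 36 and 52 counts in SP3, against 14, 23 and 28 in SP2 (1.12, adjusted P = 0.107). OsGAI (LOC_Os03g49990), a DELLA protein that restrains gibberellin responses, had 73.5, 96.2 and 109 CPM in SP3, against 89.2, 78.8 and 72.8 CPM in SP2 (0.20, adjusted P = 0.515), and its groups overlapped. Of the 12 genes named as predicted targets, 11 were tested and 1, OMTN3, passed. That is 9.09% against 7.3% of all genes tested, and the list is too short to differ from that. OsPT6 had at most 3 counts in any of the 6 libraries. OsPP108 (LOC_Os09g15670) had 0, 277 and 444 counts in SP3, against 390, 0 and 344 in SP2, and these zeros inside each group leave its change undetermined (SE 1.81 on the log2 scale).

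**Figure D2:**
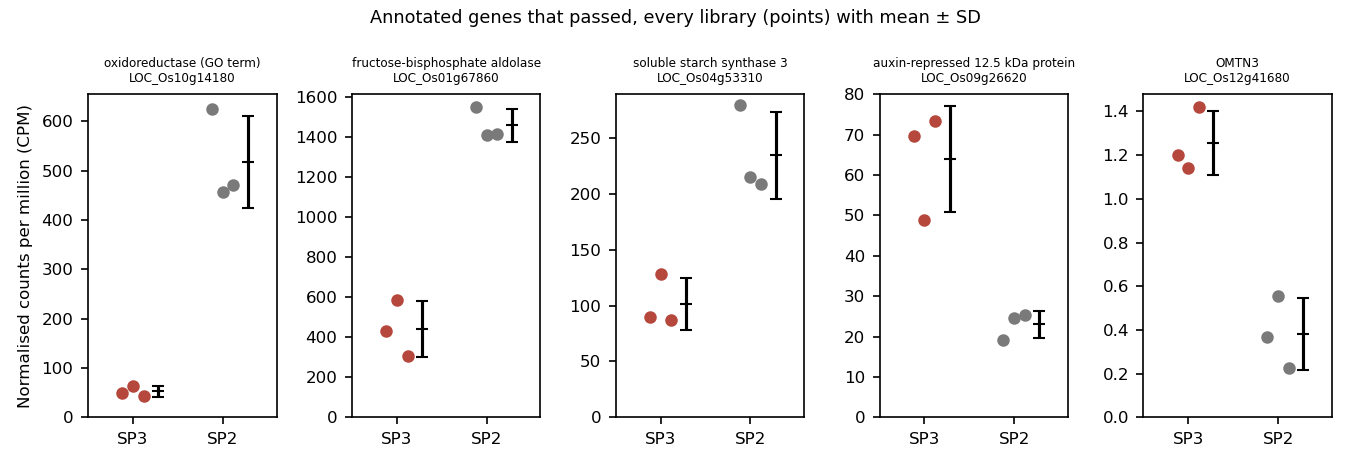
Normalised CPM, on axes from 0, of the 5 annotated genes that passed between SP3 (red points) and SP2 (grey points), each point a library, with mean ± SD beside it (n = 3). In all 5 panels the SP3 and SP2 points are apart: 3 genes are lower in SP3, the oxidoreductase gene most, and the auxin-repressed gene and OMTN3 are higher, OMTN3 at under 2 CPM throughout.

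Genes of cell division, DNA repair and chromatin are given by their values, since 7.3% of all genes tested were called and 26.2% had an unadjusted P below 0.05, and lists of 11 and 5 genes are too short for a count of 0 calls to differ from that. Of the 11 tested genes of cell division and the cytoskeleton 0 passed by edgeR or by DESeq2, and 2 had an unadjusted P below 0.05, with log2 fold changes from -0.46 to 0.60 and a median of -0.11. OsOSD1 (LOC_Os02g37850), which rice needs for the transition into the second meiotic division, had 12.4, 7.93 and 9.13 CPM in SP3, against 9.99, 14.0 and 13.6 CPM in SP2. Its groups overlapped (log2 fold change -0.36, adjusted P = 0.372). Cyclin-B1-3 (LOC_Os02g41720), a cyclin of entry into division, had 8.08, 4.11 and 5.79 CPM in SP3, against 3.42, 3.81 and 4.55 CPM in SP2 (0.60, adjusted P = 0.240). The highest SP3 value of cyclin-B1-3 was in SP3-1 and its lowest, in SP3-2, lay within the SP2 range. Without SP3-2 its log2 fold change was 0.81 (adjusted P = 0.0987).

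Of the 5 genes of DNA repair and chromatin 0 passed by edgeR or by DESeq2, and 0 had an unadjusted P below 0.05, with log2 fold changes from -0.36 to 0.05. ATM kinase (LOC_Os01g01689), which signals double-strand breaks, had 131, 180 and 130 CPM in SP3, against 238, 158 and 160 CPM in SP2 (-0.35, adjusted P = 0.367). DNA ligase 1 (LOC_Os01g49180), which joins newly replicated DNA, had 31.4, 43.7 and 31.3 CPM in SP3, against 58.6, 41.3 and 35.2 CPM in SP2 (-0.36, adjusted P = 0.402). In both genes SP3-2 was the highest SP3 library and lay above the lowest of SP2. Without SP3-2 the log2 fold changes were -0.52 for ATM (adjusted P = 0.177) and -0.53 for the ligase (adjusted P = 0.215). Without SP2-1, the highest SP2 library in both, they were -0.12 and -0.12, and without both libraries -0.29 and -0.29. DNA topoisomerase 3-alpha (LOC_Os06g16980), which resolves recombination intermediates, had 28.3, 31.2 and 29.1 CPM in SP3, against 28.7, 26.3 and 29.8 CPM in SP2 (0.05, adjusted P = 0.820).

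The remaining groups had 0 calls each by edgeR and by DESeq2, and 15 of their 56 genes (26.8%) had an unadjusted P below 0.05, close to the 26.2% of all genes tested: 7 genes of ribosome biogenesis and translation (log2 fold changes from -0.73 to 0.27), 4 of RNA processing (-0.20 to 0.81), 7 plastid proteins (-0.42 to 0.59), 8 of ubiquitin and protein folding (-0.74 to 0.02), 8 of the cell wall (-0.31 to 0.93), 7 of secretion and glycosylation (-0.74 to 0.34), 7 kinases and phosphatases (-0.20 to 0.16) and 8 of transport and membranes (-0.50 to 0.68). Within them 6 genes had an adjusted P below 0.05 at changes under 1. HOP (LOC_Os02g43020), the co-chaperone that passes client proteins between Hsp70 and Hsp90, had 161, 155 and 190 CPM in SP3, against 262, 291 and 285 CPM in SP2 (-0.74, adjusted P = 0.00809). The nuclear pore protein GP210 (Rice_newGene_9243) had 168, 188 and 156 CPM in SP3, against 312, 260 and 280 CPM in SP2 (-0.74, adjusted P = 0.00972). Both were lower in every SP3 library.

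In the other direction, CPSF30 (LOC_Os04g51940), a subunit of the complex that cuts mRNA before polyadenylation, had 40.6, 36.2 and 43.1 CPM in SP3, against 19.9, 23.9 and 24.0 CPM in SP2 (0.81, adjusted P = 0.00994). A glycine-rich cell wall protein (LOC_Os09g31080) had 1026, 936 and 1655 CPM in SP3, against 623, 618 and 647 CPM in SP2 (0.93, adjusted P = 0.0413), and passed the fold limit without SP3-2 (1.08, adjusted P = 0.0298). The vesicle-fusing ATPase NSF (LOC_Os05g44310), which takes apart SNARE complexes after membrane fusion, had 211, 208 and 213 CPM in SP3, against 170, 165 and 163 CPM in SP2 (0.34, adjusted P = 0.0423). The sixth was neutral ceramidase (LOC_Os01g43520, 0.38, adjusted P = 0.0397). In all 4 of these genes every SP3 library was higher. The gene LOC_Os03g13170 encodes ribosomal protein L40 fused to ubiquitin, a kind of mRNA that builds up in other thermosensitive rice lines that lack a ribonuclease which cuts it. It had 261, 354 and 193 CPM in SP3, against 247, 278 and 262 CPM in SP2 (0.03 ± 0.213, adjusted P = 0.954), and without SP3-2 the log2 fold change was -0.22 (adjusted P = 0.401). Ubiquitin genes have near-identical copies, so their counts may be shared among them.

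What the genes of this step did in the fertile plants was read from FP3 against FP2, which share no library with SP3 and SP2. Of 24375 genes tested there, 4810 (19.7%) passed, of which 3008 (12.3%) rose and 1802 (7.39%) fell, with less spread between libraries (common biological coefficient of variation 0.247 for FP3 and FP2 and 0.329 for SP3 and SP2). Of the 939 genes that rose in SP3, 544 also rose in FP3, 57.9% of the SP3 rises and a smaller share of the 3008 FP3 rises, and 17 fell in FP3. Of the 773 genes that fell in SP3, 137 also fell in FP3, which is 17.7% of the SP3 falls and 7.60% of the FP3 falls, and 176 rose in FP3. Across the 22485 genes tested in both steps Pearson's r of the log2 fold changes was 0.376, a description over genes, which are not independent.

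**Figure D3:**
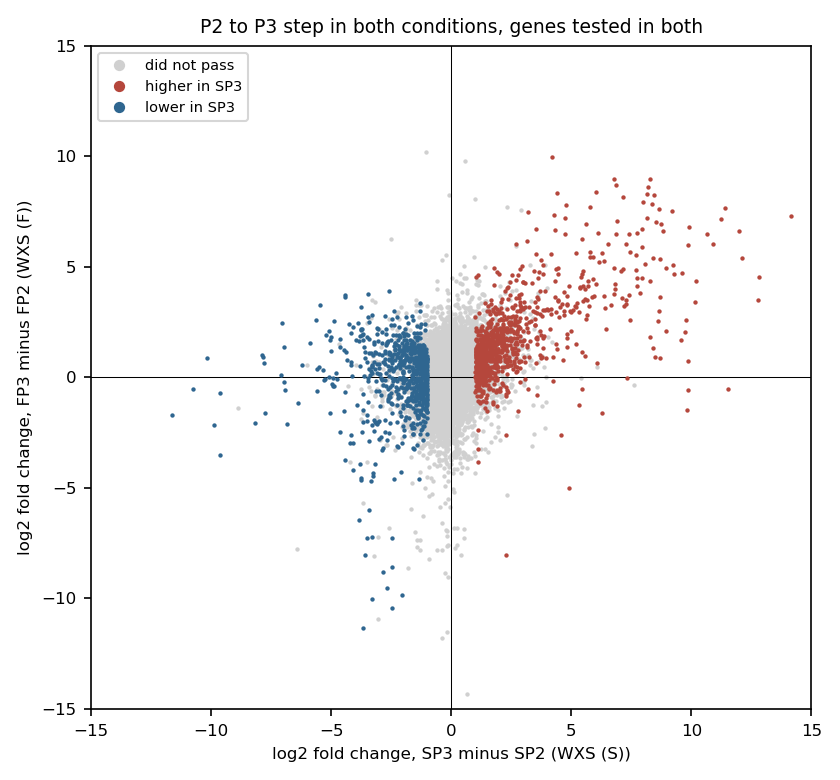
Log2 fold change of each gene tested in both steps, SP3 minus SP2 on the horizontal axis and FP3 minus FP2 on the vertical axis, with genes higher in SP3 in red, genes lower in SP3 in blue and the others in grey. The red cloud lies mostly in the upper right, with 789 of 883 rises positive in both steps, whereas the blue cloud lies on both sides of 0 on the vertical axis, with 310 of 714 falls negative in both.

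The difference of the steps itself, SP3 minus SP2 less FP3 minus FP2, was tested in 1 fit of the 12 libraries and passed in 3479 of the 23441 genes (14.8%). In 1425 (6.08%) the step was more positive in WXS (S) and in 2054 (8.76%) more negative. This split depends on the scaling: without TMM normalization it was 2035 and 1597, as the median difference over all genes moved to 0.19, from 0.00 with TMM. Of the genes that rose in SP3, 248 (26.4%) had a step more positive than in WXS (F). Of the genes that fell in SP3, 527 (68.2%) had a step more negative than in WXS (F), among them all 176 that rose in FP3. Without TMM these counts were 297 and 507. The SP3 calls and the test of the difference share the SP libraries, so these shares are not independent of the call. The 176 genes were also chosen on the FP libraries of that test, so it was nearly fixed that all of them would pass.

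Among the 119 annotated genes 13 passed this test (10.9%), 9 with a more negative and 4 with a more positive step in WXS (S). In 4 metabolic genes and HOP the fold change was negative in WXS (S) and positive in WXS (F), with changes under 1 on the log2 scale in FP3. These were 4 of the 11 tested metabolic genes and 1 of the 8 of ubiquitin and protein folding. Over all genes tested 14.8% passed, and both lists are short. Aldolase averaged 474 ± 9.62 CPM in FP3 and 265 ± 11.5 CPM in FP2 (SD, n = 3 each), and its step differed by -2.61 on the log2 scale (edgeR adjusted P = 4.11e-05). Its SP3 mean of 441 CPM was close to the FP3 mean, while its SP2 mean of 1457 CPM was above those of SP3, SP4, FP3 and FP2. Soluble starch synthase 3 averaged 214 ± 6.34 CPM in FP3 and 144 ± 4.43 CPM in FP2 (difference -1.83, adjusted P = 0.000147). The dehydrogenase beta subunit LOC_Os07g07470 averaged 53.8 ± 2.61 CPM in FP3 and 26.2 ± 4.00 CPM in FP2 (difference -1.60, adjusted P = 7.46e-05). The sulfurtransferase LOC_Os12g41500 had a difference of -1.11 (adjusted P = 0.00101), which fell short of 1 without TMM (-0.93), without SP3-3 (-0.97) and without FP2-1 (-0.95). HOP averaged 252 ± 2.38 CPM in FP3 and 136 ± 3.2 CPM in FP2, opposite to its step in WXS (S) (difference -1.67, adjusted P = 2e-06).

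In 2 other annotated genes the SP3 and SP2 libraries overlapped and FP3 was above FP2. Cinnamoyl-CoA reductase (LOC_Os08g34280), which makes lignin precursors, had 21.7, 23.6 and 22.3 CPM in SP3, against 23.1, 23.5 and 21.3 CPM in SP2. In the fertile plants it averaged 49.3 ± 3.41 CPM in FP3 and 15.9 ± 0.645 CPM in FP2 (difference -1.69, adjusted P = 3.89e-06). Protein phosphatase 2C 48 (LOC_Os05g29030) averaged 67.9 ± 8.15 CPM in SP3 and 68.2 ± 6.11 CPM in SP2, and 89.1 ± 2.07 CPM in FP3 and 43.7 ± 2.15 CPM in FP2. Its difference of -1.09 (adjusted P = 0.000157) fell short of 1 without TMM (-0.89) and without SP3-2 (-0.90). OMTN1, which was lower in every SP3 library, had a difference of -2.34 (adjusted P = 0.00118), and its counts were 636, 646 and 451 in FP3, against 303, 213 and 312 in FP2. The oxidoreductase gene LOC_Os10g14180 fell in both conditions, to 31.1 ± 1.81 CPM in FP3 against 133 ± 3.89 CPM in FP2, and more in WXS (S) (difference -1.25, adjusted P = 0.0017).

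Of the 4 genes with a more positive step in WXS (S), 3 belong to division and chromatin. These were 2 of the 11 tested genes of cell division and the cytoskeleton and 1 of the 5 of DNA repair and chromatin. The other members of both lists did not pass. Over all genes tested, 14.8% passed and 6.08% had a more positive step, and both lists are too short to differ from that. The 3 genes fell in FP3. In SP3 they were lower in every library than in SP2 but by too little to pass. The chromatin assembly factor 1 subunit FSM (LOC_Os01g67100), which places histones on newly replicated DNA, had 37.5, 34.9 and 33.9 CPM in SP3, against 39.2, 42.8 and 39.0 CPM in SP2. In the fertile plants it averaged 15.2 ± 0.814 CPM in FP3 and 62.7 ± 0.739 CPM in FP2 (difference 1.81, adjusted P = 8.82e-07). Aurora kinase (LOC_Os01g09580), a kinase of chromosome segregation, had 24.0, 24.6 and 25.1 CPM in SP3, against 33.7, 30.8 and 28.2 CPM in SP2. In the fertile plants it averaged 9.39 ± 0.675 CPM in FP3 and 37.5 ± 7.83 CPM in FP2 (difference 1.61, adjusted P = 0.000218). The NACK1-like kinesin (LOC_Os01g33040), a motor of cell plate growth in tobacco, had 45.2, 53.8 and 54.8 CPM in SP3, against 62.5, 60.3 and 63.1 CPM in SP2. It averaged 24.8 ± 0.636 CPM in FP3 and 90.9 ± 4.96 CPM in FP2 (difference 1.55, adjusted P = 5.62e-06). The fourth was the zinc finger gene indeterminate-domain 5 (LOC_Os08g44050, difference 1.25, adjusted P = 0.00277). OsOSD1 had a difference of 0.84 that did not pass (adjusted P = 0.0695). Stages were assigned separately in the field and the incubator, and whether panicles of the same stage name had advanced equally far was not tested.

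**Figure D4:**
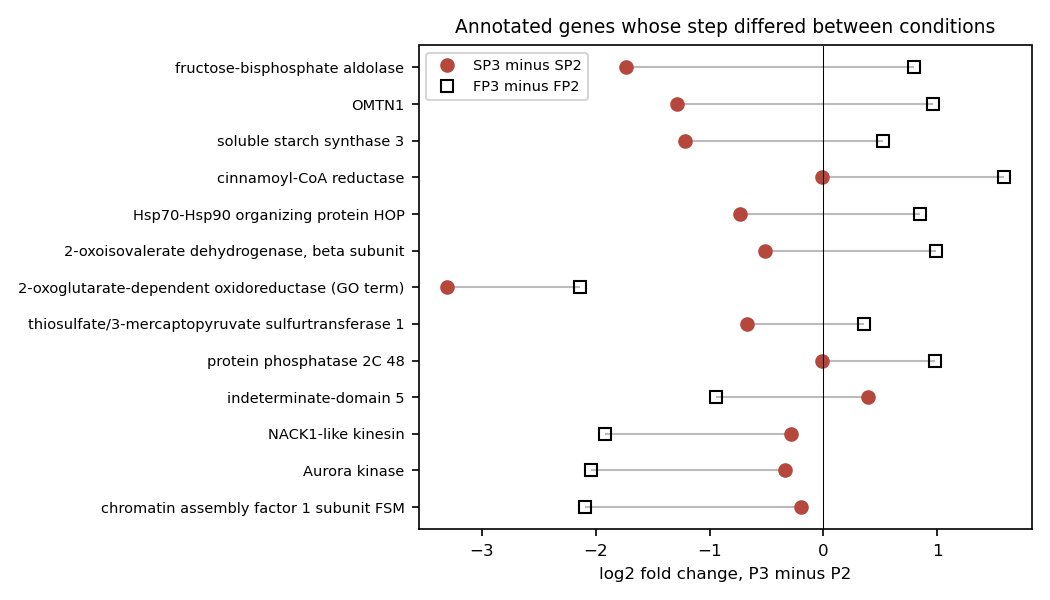
Log2 fold change from P2 to P3 of the 13 annotated genes whose step differed, as filled red circles for SP3 minus SP2 and open squares for FP3 minus FP2, ordered from the most negative to the most positive difference. The kinesin, Aurora kinase and FSM stand at the bottom with fertile values from -1.92 to -2.09 and sterile values from -0.20 to -0.34.

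Levels at the next stage showed where the genes of this step went. On the log2(CPM + 1) scale the genes that rose had medians of 0.97 in SP2, 2.60 in SP3 and 3.44 in SP4, and the genes that fell had medians of 3.45 in SP2, 1.81 in SP3 and 2.08 in SP4. Of the 939 rises, 797 had a mean SP4 level on the SP3 side of the midpoint between SP2 and SP3, and 607 had one above SP3. Of the 773 falls, 602 stayed on the SP3 side of the midpoint and 282 were below SP3, while 171 returned past the midpoint. The midpoint uses the SP3 and SP2 values that chose the genes, so these counts are a description. Aldolase was among the falls that came partly back, with 1457 ± 80.9 CPM in SP2, 441 ± 139 CPM in SP3 and 883 ± 60.5 CPM in SP4, as was soluble starch synthase 3 with 140 ± 6.15 CPM in SP4. OMTN3 was at 3.24 ± 0.215 CPM in SP4, above every SP3 library.

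**Figure D5:**
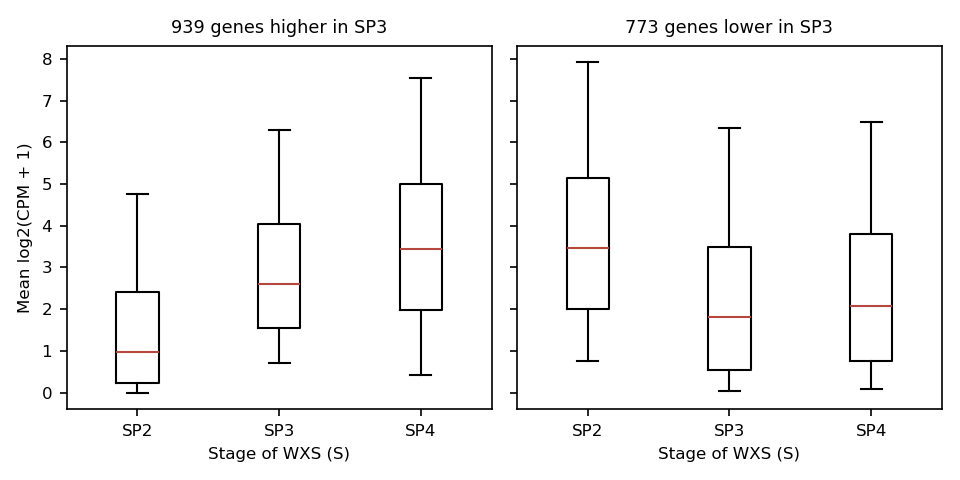
Mean log2(CPM + 1) in SP2, SP3 and SP4 of the 939 genes higher in SP3 (left) and the 773 genes lower in SP3 (right), as boxes from the first to the third quartile with the median in red and whiskers to the 5th and 95th percentiles. The median of the left panel is 0.97, 2.60 and 3.44 over the stages and that of the right panel 3.45, 1.81 and 2.08.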

How the data were processed

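Whole-panicle RNA was depleted of rRNA and made into strand-specific libraries. The authors mapped reads to the rice genome with HISAT2, and StringTie 1.3.1 is listed in the submitters' processing notes; the counter and its treatment of reads with several positions are not given in the sources used here. The deposited counts are whole numbers per gene without normalization, and the FPKM values are the authors' own, used for levels between genes. The lncRNA counts served for library checks only. The circRNA tables and the lncRNA FPKM were not used. Each column matched a library by name (0 unmatched).

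Genes that reached 10 counts in 3 or more of the 6 libraries went into edgeR 4.0.16 (glmQLFit, glmQLFTest, TMM, no block) in R 4.3.3, and were called at a Benjamini-Hochberg adjusted P below 0.05 with a change of 1 or more, up or down, on the log2 scale. Standard errors were approximated as the fold change over the root of F. CPM values use TMM factors over all 18 libraries. The difference of the steps was a contrast over 12 libraries, for the genes of the SP filter. Folds against groups at 0 use 3 counts per library.

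The members and lists were chosen with earlier results of these data known. The pathway lists planned at first pair symbols with identifiers from general knowledge. Apart from the 12 targets the study names, no source used here annotates those identifiers, so these lists were not used, and the identifiers annotated by the study were grouped instead, after the overall counts of calls had been seen. By the rule for named genes, the members that passed are named, up to 6 per list, and, outside the lists, the 10 largest changes in each direction among called genes that do not overlap and average at least 100 counts in the higher group, of which 2 identifiers a direction are printed. Members named for an adjusted P below 0.05, a step difference, the size of their change or their role were chosen after their values were seen.

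Alternatives were DESeq2 1.42.0, no TMM, no filter, a joint fit of all 18 libraries, a block for the replicate number, adjusted P below 0.01, genes over 1% of a library left out, and each library left out. Leaving out SP3-2 and SP2-1 together, and all alternatives of FP3 against FP2, were added after the data were seen. The procedure was run on simulated data with 200 changed genes. Each count was drawn independently, with the spread fitted to these libraries, so the run does not cover the axis that set SP3-2 and SP2-1 apart. Python 3.11.15 and matplotlib 3.10.9 drew the figures.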

Additional observations from a re-analysis of the deposited data

Results flagged for a closer look

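The step from P2 to P3 differed between WXS (S) and WXS (F) in 3479 coding genes by the edgeR test of the difference itself (8879 at an unadjusted P below 0.05). Differences are given as SP3 minus SP2 less FP3 minus FP2 on the log2 scale.

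More negative in WXS (S) were fructose-bisphosphate aldolase (LOC_Os01g67860, -2.61), OMTN1 (LOC_Os02g36880, -2.34), soluble starch synthase 3 (LOC_Os04g53310, -1.83), cinnamoyl-CoA reductase (LOC_Os08g34280, -1.69), HOP (LOC_Os02g43020, -1.67), the dehydrogenase beta subunit LOC_Os07g07470 (-1.60), the oxidoreductase gene LOC_Os10g14180 (-1.25), the sulfurtransferase LOC_Os12g41500 (-1.11) and protein phosphatase 2C 48 (LOC_Os05g29030, -1.09). More positive in WXS (S) were FSM (LOC_Os01g67100, 1.81), Aurora kinase (LOC_Os01g09580, 1.61), the NACK1-like kinesin (LOC_Os01g33040, 1.55) and indeterminate-domain 5 (LOC_Os08g44050, 1.25).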

How the results depend on the processing

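The counts of rises and falls depended on threshold, method, scaling and libraries. DESeq2 gave 1145 rises and 937 falls, and the joint fit of 18 libraries 1357 and 1000. Without TMM there were 1023 rises and 668 falls, so that rises were 60.5% of the calls, against 54.8% with TMM. At an adjusted P below 0.01 there were 497 rises and 452 falls, against 939 and 773 at 0.05. With each library left out in turn there were 493 to 763 rises, lowest without SP3-3 (522 without SP3-1), and 486 to 767 falls, lowest without SP2-2 (502 without SP2-3). Without SP3-2 and SP2-1 together there were 542 rises and 581 falls, an alternative chosen after seeing the data. Over all 14 alternatives 303 rises and 335 falls were kept. None of the 69 rises at 0 in SP2 or the 28 falls at 0 in SP3 could be kept. The filter took them out of some of these fits. With the replicate block there were 449 rises and 424 falls. The labels do not say whether equal replicate numbers pair the libraries. Deviations of same-numbered libraries correlated at -0.16, -0.12 and 0.05, and 1 of 3 SP3 libraries was closest to its own number, which is too few values to decide it. The count of step differences and the counts of the fertile step stayed within 1.5 times under every alternative run, with 3135 to 3560 step differences when a library was left out. No named gene changed sign and call together. Soluble starch synthase 3 lost its call at 0.01, in the block fit (adjusted P = 0.0505) and without SP3-1, and OMTN3 at 0.01, without the filter (0.0776), in the block fit (0.152), without SP3-2 and SP2-1 together (0.128) and without any of 5 single libraries, by edgeR. OMTN1 and OsHsfC1a passed in the joint fit of 18 libraries (edgeR adjusted P = 0.00259 and 0.0296), and the glycine-rich cell wall protein without TMM (1.01, 0.0459). The causes were not tested. Depth limits genes with few counts: zeros allow up to 3 counts per library.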
